A study of Arabidopsis thaliana with 8 samples.

Results

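Tiles that stood above the median tile of a chromosome 4 tiling array were examined where most of their neighbours were low, in a chromatin immunoprecipitation (ChIP) of histone H3 dimethylated at lysine 4 (H3K4me2). The low plates were TA21 to TA30, TA37 to TA51, TA57 to TA59 and TC17 to TC30, 41 plates in 4 blocks that hold 3544 tiles with values. A tile was a member when the mean of its 4 centred replicates was above 0. This chose 241 tiles, 6.80% of the tiles on these plates and a small part of the 21285 tiles measured on the array. Over the whole array 50.2% of the tiles had a mean above 0. The members were thus chosen on their own log ratios, and their levels, counts and places are given as a description with no test.

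The material was Arabidopsis thaliana of the reference accession Col-0, taken as whole seedlings at 10 days of age after growth in liquid medium without treatment. Immunoprecipitated (IP) and input DNA of 4 replicates were hybridised together, each on 2 arrays with the dyes exchanged, and all 8 arrays form 1 group. The columns of a dye swap were identical in all 4 replicates, so n = 4 throughout. IP chromatin of replicates 2, 3 and 4 carried the same seedling label, and the input label differed in each replicate, so the spread between replicates may be technical.

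In plants, H3K4me2 is laid down over genes and their promoters and is scarce over transposons and other repeats that are kept silent by DNA methylation and H3K9 methylation. Chromosome 4 of Arabidopsis carries such silent chromatin around its centromere and, in Col-0, in a knob on its short arm, and genes are known to lie scattered among the repeats there. The tile names give a plate and a well and pair with no gene or position in the files. Whether the low plates hold any of these regions, and what lies under each tile, could therefore not be read here. No tile name was found in the gene table at hand and no sequence is shown. The direction of the deposited ratio, IP over input or the reverse, is not stated. High and above therefore refer to the deposited sign, and 0 is the median tile of the array.

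The members were spread unevenly over the 4 blocks. Plates TA21 to TA30 held 106 members among 822 tiles (12.9%), and plates TA57 to TA59 held 35 among 285 (12.3%). The longer blocks held fewer, with 60 of 1339 tiles (4.48%) on TA37 to TA51, while TC17 to TC30 had 40 of 1098 (3.64%). Members were found on 31 of the 41 plates. The 7 plates with the highest counts held 119 of the 241 members (49.4%), led by TA27 with 24 of 91 tiles and TA26 with 21 of 92. Without those 2 plates, an alternative added after seeing the data, 196 members were left.

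**Figure D1:**
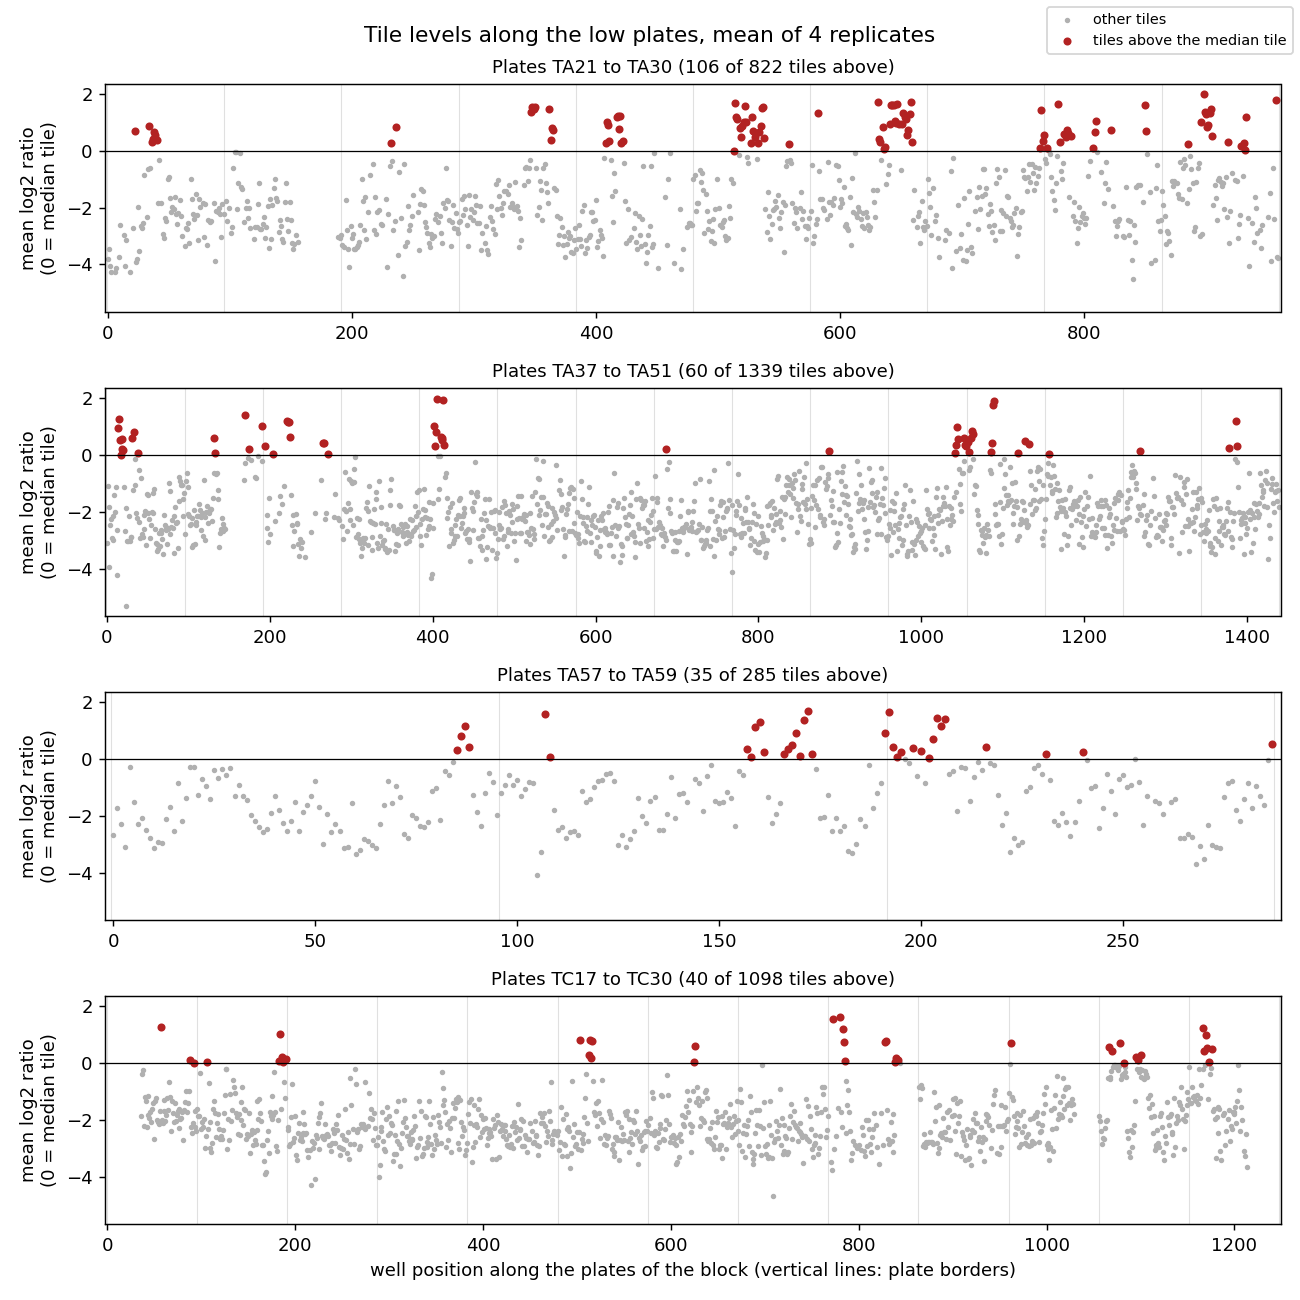
Mean log2 ratio of each tile against its well position along the plates of the 4 low blocks (0 is the median tile of the array; red points are the 241 members, grey points the other tiles, vertical lines plate borders, empty stretches wells without a value). The members stand in clumps separated by long stretches that hold none, such as the 312 wells of the TC block between plates TC18 and TC22.

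Long stretches of wells held no member. The longest ran for 312 wells from TC18H12 to TC22B11, for 272 wells from TA41C08 to TA44B03 and for 191 wells from TA21D06 to TA23D04. On TA57 to TA59 it was the 85 wells at the start of the block, TA57A01 to TA57H01. These lengths count every well, with or without a value. The other tiles of the 4 blocks had medians of -2.25, -2.22, -1.56 and -2.26 in the order of the plates, so the members of TA57 to TA59 stood on the highest floor.

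Few members lay at the very ends of the blocks. Past the outermost wells and over the 4 blocks together, members were more frequent within a plate's length of an end than deeper inside. This did not hold in every block. Within 16 wells of an end lay 4 members among 86 tiles. At 96 wells, the length of a plate, or more from both ends lay 177 of the 241 members (73.4%), against 81.2% of all tiles of the blocks. The share of tiles that were members was 10.3% at 16 to 47 wells from an end, 10.4% at 48 to 95 wells, 8.58% at 96 to 191 wells and 5.55% beyond. These bins mix blocks of unlike length. On TA37 to TA51, 8 of 64 tiles were members at 16 to 47 wells, but 3 of 96 at 48 to 95 wells. Deeper in that block it was 6 of 150 at 96 to 191 wells and 41 of 997 at 192 or more. The TC block had 0 of 25 at 16 to 47 wells and 9 of 93 at 48 to 95. Its deeper wells had 13 of 191 at 96 to 191 and 18 of 789 at 192 or more. TA57 to TA59 went the other way, with 1 of 62 at 16 to 47 wells. It had 17 of 96 at 48 to 95 wells and 16 of 95 at 96 to 191. On TA21 to TA30 the counts were 12 of 53 at 16 to 47 wells and 10 of 91 at 48 to 95. They were 14 of 135 at 96 to 191 wells and 69 of 521 at 192 or more. The TC block has no tile within 16 wells of its ends, because its first measured tile, TC17D01, follows 36 wells without a value and its last, TC30F02, is followed by 34. The tile farthest from both ends was TA44B04, a single tile 687 wells inside TA37 to TA51. It had centred log2 ratios of -0.22, 0.66, -0.15 and 0.52 in replicates 1 to 4, so it was above 0 in 2 of 4 replicates only.

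Counted along the plate rows, the 241 members fell into 107 runs, a run being a set of neighbouring wells that were all members. Runs averaged 2.25 tiles and the longest had 9. Single tiles made up 62 of the runs (57.9%) but 25.7% of the members, while 25 runs of 4 or more tiles held 133 members (55.2%). Runs passed from one plate to the next in 2 cases, TA47H10 to TA48A03 with 6 tiles and TA58H12 to TA59A04 with 5. The blocks differed in how their members were grouped. The mean run held 3.03 tiles on TA21 to TA30 and 2.92 on TA57 to TA59, against 1.88 on TA37 to TA51 and, in the TC block, 1.43. In the TC block 19 of 40 members (47.5%) were single and the longest run had 4 tiles, TC22C10 to TC22D01. Counted down the plate columns, the same tiles gave 197 runs, 160 of them single.

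**Figure D2:**
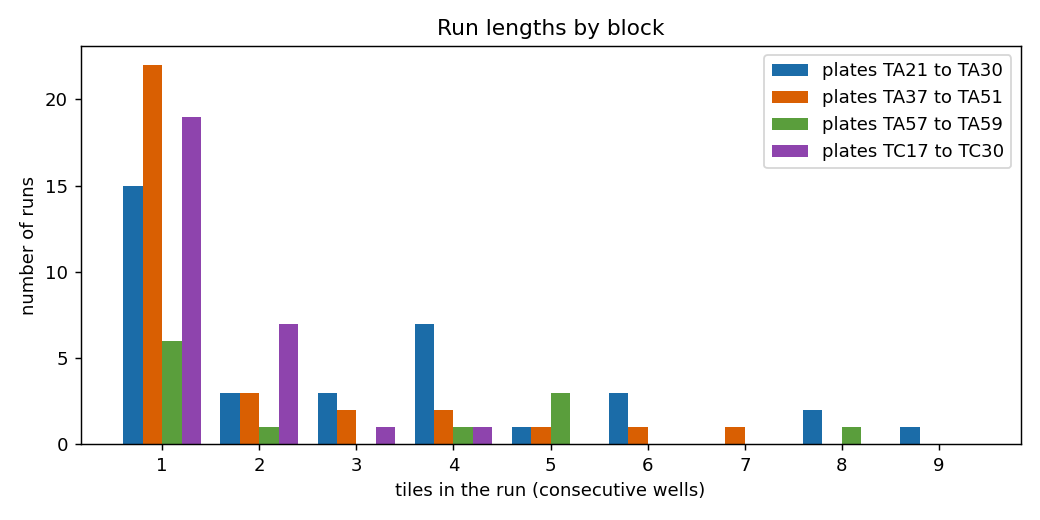
Number of runs (vertical axis) by the number of tiles in a run of consecutive wells (horizontal axis) for the 4 blocks. Single tiles are the most frequent class in every block, runs of 8 or 9 tiles occur on TA21 to TA30 and TA57 to TA59, and the TC block has none above 4.

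The longest run, of 9 tiles, lay on plate TA27 beside 1 of the 3 runs of 8 tiles. The other runs of 8 were TA30C11 to TA30D06 and TA58F11 to TA58G06. The run TA27G04 to TA27G12 had 9 tiles with a mean level of 1.02 on the log2 scale, and 0.71, 1.16, 0.98 and 1.25 in replicates 1 to 4. All 9 tiles were above 0 in every replicate, with replicate 1 the lowest of the 4 run means. Its highest tile, TA27G11, read 1.47, 2.08, 1.51 and 1.77 (1.71 ± 0.28, SD, n = 4). The next tile along, TA27H01, read -2.42 ± 0.06, so the run ended within 1 well after a last member, TA27G12, of 0.32 ± 0.24.

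The run TA27F06 to TA27G01 had 8 tiles between 0.93 and 1.63, with run means of 1.20, 1.26, 1.36 and 1.36 in replicates 1 to 4. The replicates differed by less here than in the neighbouring run. Between the 2 runs lay TA27G02, which had no value, and TA27G03 with -0.69 ± 0.30. Bridging up to 2 wells joined them into a group of 17 members across 19 wells. The run TA30C11 to TA30D06 held the highest member of all. TA30C11 read 1.70, 2.15, 2.08 and 2.07 (1.998 ± 0.20, 4.00-fold from the median tile), and the tile just before it stood at -2.91. The whole step at this edge thus lay between neighbouring wells. The low tile was a lone one, as the well before it, TA30C09, was a single member at 1.02. In the run TA58F11 to TA58G06, with a mean level of 0.66, 4 of the 8 tiles were above 0 in all 4 replicates.

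**Figure D3:**
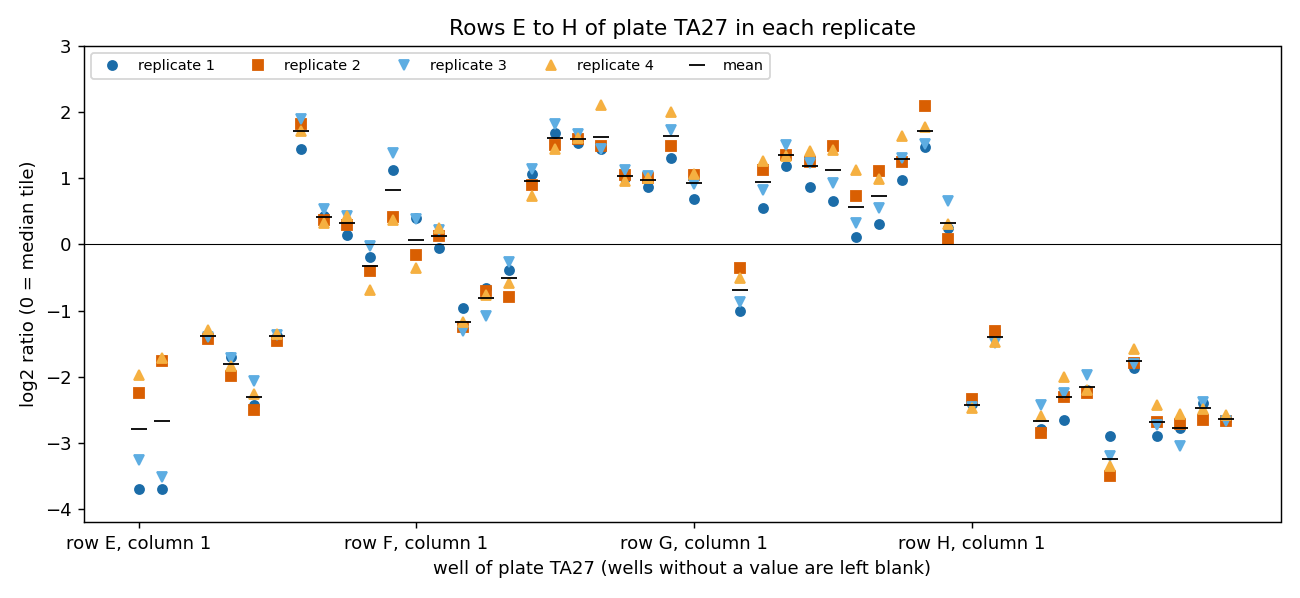
Centred log2 ratio (vertical axis, 0 is the median tile) of each replicate and their mean for the wells of rows E to H of plate TA27 (horizontal axis; wells without a value are left blank). The tiles TA27F06 to TA27G01 and TA27G04 to TA27G12 are above 0 in all 4 replicates, and from TA27H01 at -2.42 on the tiles are low again.

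Each block had a highest member that stood above 0 in all 4 replicates. On TA37 to TA51 it was TA41B10, with 1.74, 2.31, 1.72 and 2.11 (1.97 ± 0.29), followed by a neighbour at -1.54. On TA57 to TA59 it was TA58G05, with 1.47, 1.94, 1.47 and 1.82 (1.67 ± 0.24), in a run of 8. In both tiles replicates 2 and 4 read higher than 1 and 3. On TC17 to TC30 it was the single tile TC25B01, with 1.52, 1.76, 1.61 and 1.58 (1.62 ± 0.10), which had a well without a value before it and a tile at -1.72 after it.

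Single tiles were of unlike kinds. Of the 62, 46 had a measured tile on both sides, and 17 of these stood between 2 tiles below -1, with a median level of 0.38. Another 15 had no neighbour below -1. TA30H10 was the highest single, with 1.76, 1.89, 1.79 and 1.74 (1.79 ± 0.07) between tiles at -2.41 and -3.73. The 4 replicates hardly differed at this tile, which lay 2 wells from the block's end. On TA37 to TA51 the highest single was TA38G03 at 1.40 ± 0.40, next to a tile at -0.28 and a well without a value. The single tile farthest from the ends of the TC block, TC22B12 at 0.79 ± 0.42, stood between tiles at -2.42 and -3.07. On TA21 to TA30 the farthest single, TA26G07, was above 0 in replicates 1 and 3 only, with 0.56, -0.06, 0.49 and -0.03, and on TA57 to TA59 it was TA59A07 with 0.39 ± 0.36. TA59H12, the highest single of TA57 to TA59 at 0.52 ± 0.12, was the last well of its block. The following tiles, TA60A01 and TA60A02, read 1.77 ± 0.48 and 1.34 ± 0.27, so it was single only because the block ends there.

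The level of the members was modest. Their means ran from 0.00479 to 1.998 with a median of 0.59 (1.51-fold from the median tile) and quartiles of 0.27 and 1.11. The median over members was 0.56, 0.70, 0.62 and 0.65 in replicates 1 to 4 (0.63 ± 0.06, SD, n = 4), against -2.21 ± 0.35 for the other tiles on the same plates. A mean above 1 was reached by 70 members (29.0%) and above 2 by 0. On all other plates 10444 tiles had a mean above 0, with a median of 0.90, and 44.1% of them were above 1 and 4.01% above 2. Both sets were chosen on this measure, so the difference in level between them was not tested. Directly beside the runs the median tile read -0.94 and 48.8% of the tiles lay below -1, so not every member was an island set in low tiles. As deposited, without centring, the mean of 120 of the 241 was above 0.

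The blocks also differed in the level of their members. The median was 0.82 on TA21 to TA30, 0.47 on TA37 to TA51, 0.41 on TA57 to TA59 and 0.42 in the TC block, and 42, 12, 10 and 6 members had a mean above 1. Tiles in longer runs stood higher. The median was 0.30 for single tiles, 0.61 in runs of 2 or 3 and 0.78 in runs of 4 or more, and the median SD over replicates was 0.34, 0.26 and 0.22. A mean is averaged over noise, and near 0 a tile enters or leaves by little. The members just inside were TA37B06 at 0.00479 ± 0.17 and TC29C03 at 0.00608 ± 0.28. The tiles just outside were TA59F02 at -0.0157 ± 0.12 and TC25G05 at -0.0176 ± 0.34. These 4 tiles cannot be told apart by their replicates, and 26 members lay within 0.1 above 0, with as many tiles within 0.1 below.

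Some members were the upper tiles of a plateau and not peaks. Taking stretches of consecutive wells with a mean above -1, the 241 members fell into 89 stretches that also held 127 other tiles, and 29 of these stretches were a single tile. The longest, TC29A10 to TC29C06, had 21 tiles between -0.58 and 0.71 with a median of -0.20, of which 4 were members. It was bounded by tiles at -2.01 and -2.41. A second stretch on that plate, TC29D04 to TC29E04, held 13 tiles with a median of -0.28 and 3 members. All 7 members of TC29 lay in these 2 stretches. In the first the stretch median was -0.44 and -0.53 in replicates 1 and 3 and 0.11 and 0.00170 in replicates 2 and 4. The plateau thus lay below 0 in replicates 1 and 3, and at or just above 0 in 2 and 4. These stretches were singled out after their values were seen. In 11 of the 89 stretches members were fewer than other tiles, among them TA28H07 to TA29A06 with 5 members of 12 tiles. Members were the majority in other wide stretches, such as TA58H11 to TA59B05 with 12 of 19 and TA47H07 to TA48A09 with 9 of 15. All 3 of these cross a plate border.

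Most members were above 0 in every replicate. This held for 179 of the 241 (74.3%), against 43% of all tiles on the array, a share that the rule of choice raises by itself. Among tiles with a mean above 0 elsewhere it was 80.3% on TA31 to TA36. It was 74.2% on TA52 to TA56 and TA60 to TA63, so the members were no more even than such tiles. A further 35 members were above 0 in 3 replicates, 26 in 2 and 1 in 1 replicate. The 62 that were not above 0 throughout had a median level of 0.12 and none exceeded 0.57. Of the 26 tiles with 2 replicates above 0, 16 were above in replicates 2 and 4, 8 in replicates 1 and 3 and 2 in another pair. The share above 0 in all 4 was 86.8% on TA21 to TA30, 71.4% on TA57 to TA59, 65% on TA37 to TA51 and 57.5% in the TC block. It was 85.7% in runs of 4 or more and 54.8% among single tiles. In limma, fitted on all tiles, 176 of the 241 members (73.0%) were above the median tile at an adjusted p under 0.05 and 0 were below, where 42.1% of all tiles were called above. The members were chosen on this contrast and nothing is read from the count.

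To read the same measure in replicates that the choice did not use, tiles of the low plates were chosen again on a pair of replicates. On replicates 1 and 3 alone 234 tiles had a mean above 0, and 194 of them (82.9%) were above 0 in both replicates 2 and 4, where their median was 0.63. Of the 3310 tiles not chosen, 46 (1.39%) were above 0 in both. On replicates 2 and 4 alone 258 tiles were chosen and 181 (70.2%) were above 0 in both 1 and 3, with a median of 0.48 there, against 28 of the 3286 others (0.852%). The plates themselves were set apart by their low level in these same data. The small shares among the tiles not chosen thus follow in part from the choice of plates. Single tiles carried over less often in number, with 40 of 52 (76.9%) in the first direction and 34 of 69 (49.3%) in the second, than tiles in runs of 4 or more, with 117 of 126 (92.9%) and 111 of 129 (86.0%). The difference between singles and runs was not tested. Replicate 3 shares its IP label with replicates 2 and 4, so the pairs are not separate chromatin by that label. Chosen on 3 replicates and read in the remaining one, 84.7%, 90.6%, 82.0% and 90.2% of the tiles were above 0 in replicates 1 to 4.

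The same reading gave the shape of the edges. With runs chosen on replicates 1 and 3, runs of 4 or more tiles had a median of 0.81 in replicates 2 and 4, the tiles beside them -0.67, the next -1.03 and those 3 wells away -1.52. Beside single tiles, with 0.50, the neighbouring wells were at -1.34 and those 4 wells away at -1.80. With the pairs exchanged, runs of 4 or more had 0.73 and their neighbours -0.65, -0.95 and -1.66, and single tiles 0.13 with neighbours at -1.68. In both readings the neighbours of long runs were less low than the neighbours of single tiles, a difference that was not tested.

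**Figure D4:**
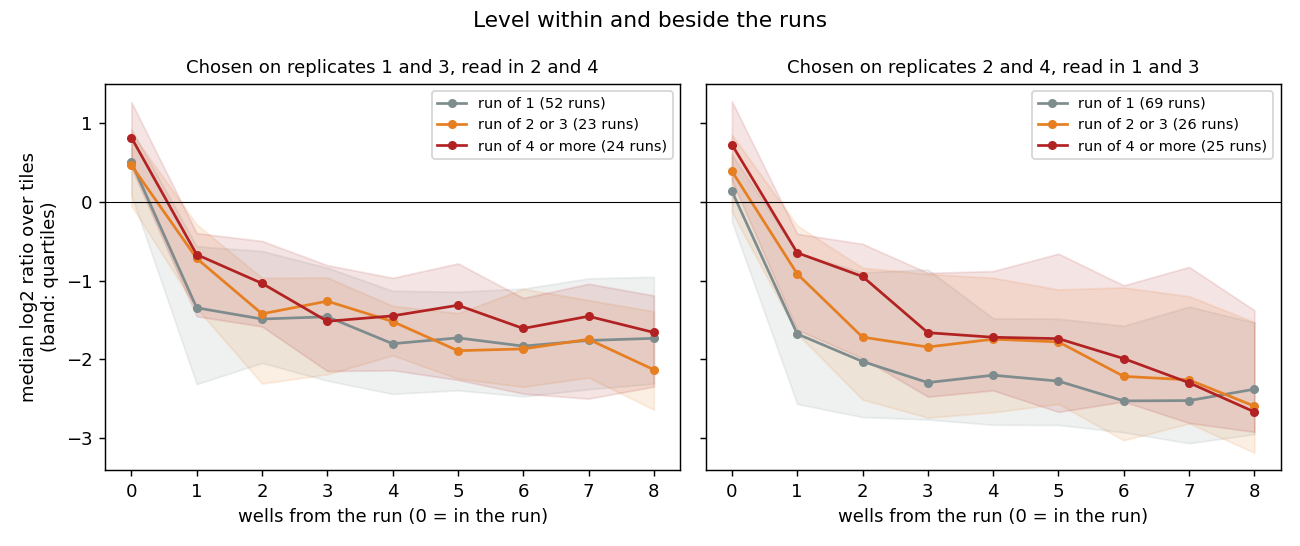
Median log2 ratio over tiles (vertical axis, bands are quartiles) in the run (0) and 1 to 8 wells from it (horizontal axis), for runs chosen on one pair of replicates and read in the other pair. In both panels the medians are above 0 in the run and below 0 from the first well outside it. Beside runs of 4 or more they fall up to 3 wells in the first panel (-1.52, and -1.66 at 8) and to 8 wells in the second (-2.66). Beside single tiles they also fall, from -1.34 at 1 well to -1.83 at 6 in the first panel. In the second they go from -1.68 at 1 well to -2.53 at 6. The first panel is read in replicates 2 and 4, where the other tiles of the low plates have medians of -1.90 and -1.92. The second panel is read in replicates 1 and 3, where these medians are -2.49 and -2.55.

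The 4 replicates did not deviate independently. Across the 241 members, which share the arrays and a narrow range of levels, Pearson's r was 0.91 for replicates 1 and 3 and 0.94 for 2 and 4. It lay from 0.62 to 0.64 in the remaining 4 pairs. The median size of the difference between replicates was 0.17 and 0.11 in the first 2 pairs and 0.31 to 0.37 in the others. Over all tiles r was 0.93 or more in every pair, over a much wider range of levels. The members with the largest SD were split in the same way. TA39C06 read 0.38, 2.10, 0.25 and 2.07 (1.20 ± 1.02), and TC17E10 read 0.32, 1.94, 0.55 and 2.23 (1.26 ± 0.96). Both were far higher in replicates 2 and 4 than in 1 and 3. TC18A11, the most divided of the tiles with 2 replicates above 0, read -0.31, 0.66, -0.90 and 0.71. The tile with 3 replicates below 0 was TA26C10, which read -0.02, -0.11, 0.20 and -0.03 (0.00992 ± 0.13).

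The difference of replicates 1 and 3 from 2 and 4 does not enter the mean on which the members were chosen, although the split itself was known from earlier results. No label gives these arms, which were taken from the same data. The adjusted p-values of the split thus lack their nominal meaning, and its counts are a description. In limma over all tiles, 98 of the 241 members (40.7%) differed at an adjusted p under 0.05, 36 higher and 62 lower in replicates 1 and 3, where 34.9% of all tiles were called, 11.8% higher and 23% lower. The members' shares were near that background. Leaving out 1 replicate makes 1 arm a lone sample whose spread is taken from the opposite arm. The counts were then 93, 32, 88 and 38 without replicates 1, 2, 3 and 4. The direction rested on the scaling, each count being over the members that setting gave. It was 45 higher and 53 lower after quantile normalization, 0 and 68 as deposited and 14 and 7 centred on the mode. Over all tiles the counts were 3830 higher and 3724 lower after quantile normalization. They were 129 and 11701 as deposited, and 3002 and 2823 on the mode. The change with scaling was thus not particular to the members. The median difference was -0.07 over the members, -0.53 over the other tiles of the low plates and -0.04 over the tiles above 0 on all other plates. After quantile normalization these were -0.03, -0.13 and 0.01. Of the 3303 other tiles on the low plates 1850 were lower in replicates 1 and 3, and 1085 after quantile normalization, against 62 and 54 of the 241 members. By block the members' median difference was -0.00284 on TA21 to TA30, -0.21 on TA37 to TA51, -0.09 on TA57 to TA59 and -0.23 in the TC block, and 18 of 40 members of the TC block were lower in replicates 1 and 3 and 5 higher. After quantile normalization the median on TA21 to TA30 turned to 0.05, with 21 members higher and 11 lower in place of 16 and 13, and the other blocks stayed below 0. Differences between blocks were not tested.

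**Figure D5:**
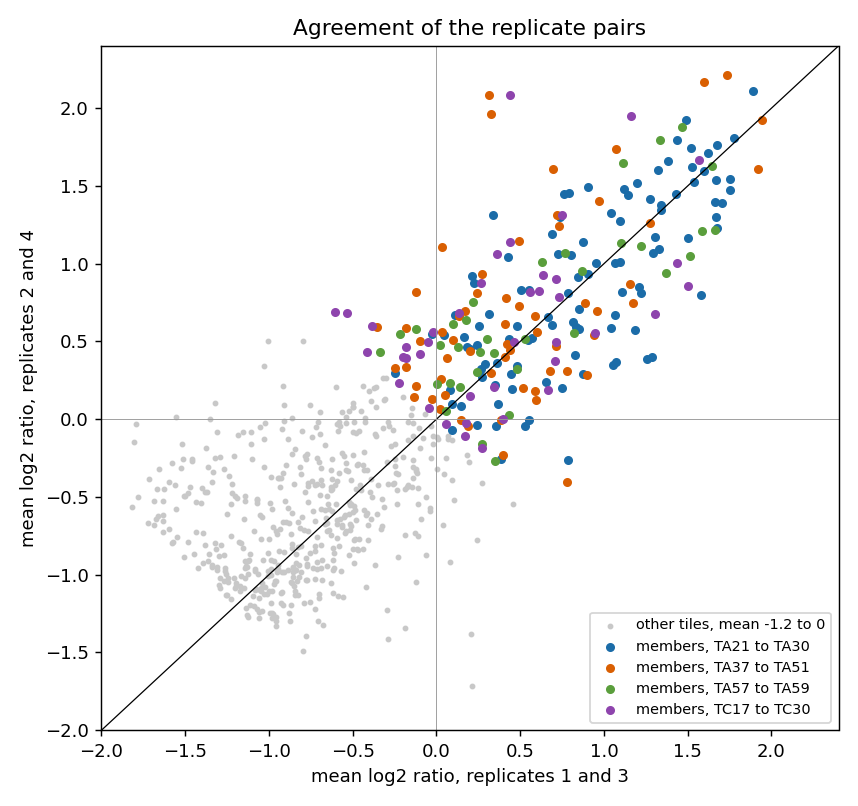
Mean log2 ratio of replicates 2 and 4 (vertical axis) against that of replicates 1 and 3 (horizontal axis) for the members, coloured by block, and for other tiles of the low plates with a mean just below 0 (grey), with the line of equal values. Members of TA21 to TA30 lie on both sides of the line (median difference -0.00284, and 0.05 after quantile normalization), and those of the TC block mostly above it (-0.23).

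The second number in the titles was shared by replicates 1 and 2, and by 3 and 4. The labels do not say what it marks. For replicates 1 and 2 against 3 and 4 limma called 0 members and 0% of all tiles at an adjusted p under 0.05, and 0 members and 28 tiles in all at an unadjusted p under 0.05. The median size of this difference over the members was 0.10, against 0.33 for the other split. The split of 1 and 3 from 2 and 4 lies within both arms here and enlarges the error, so the count of 0 does not show that these arms were alike.

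Beside the low blocks, tiles above 0 were more frequent, and their runs were longer than the average over the low plates. The mean run exceeded that of every low block on TA31 to TA36 only. On TA31 to TA36, between the first 2 blocks, 259 of 559 tiles (46.3%) had a mean above 0, in 60 runs that averaged 4.32 tiles and reached 22, and 35% of the runs were single tiles. On TA52 to TA56 and TA60 to TA63 it was 233 of 856 tiles (27.2%) in 80 runs of 2.91 on average, 38.8% of them single. A mean above 2 was reached by 10 and 12 tiles there, and by 0 of the members. The members' mean run was 3.03 on TA21 to TA30 and 2.92 on TA57 to TA59. The median level of the tiles above 0 on the compared plates was 0.80 and 0.71, against 0.59 for all members and 0.82 for those of TA21 to TA30. The plates were set apart by their low level in the first place, so fewer members on them follow in part from the choice of plates, and the differences were not tested.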

How the data were processed

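The authors deposited 1 log ratio per tile and array, read here as log2 since no base is stated. How arrays were scanned, background-corrected, normalized and averaged is not given in the sources used here. Per the labels, amplification preceded direct dye labelling of the DNA. Of 21800 rows, 21761 carry a plate and well name, and 21285 of them have values. The 2 columns of a dye swap were averaged, and each replicate was centred on its median (-0.96, -0.33, -0.71 and -0.38 before centring). Wells were ordered by plate, row letter and column, and a non-member or empty well ended a run. Plate TC26 has no rows, and TC25 and TC27 were taken as neighbours. limma 3.58.1 in R 4.3.3 (lmFit, eBayes, two-sided, Benjamini-Hochberg over 21285 tiles) was tested on simulated data with 200 changed tiles. For the mean it recovered 99 of 100 tiles changed 8-fold and 74 of 100 changed 2-fold with 6 false calls, and for the split 93, 47 and 2. Simulated replicates were independent, unlike these, and the data hold far more calls. Tables and figures used Python 3.11.15, numpy 2.4.6, pandas 2.3.3, scipy 1.17.1 and matplotlib 3.10.9.

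The members and the naming rule were chosen with earlier results of these data known. By that rule the text names, per block, the highest member, the highest single and the single farthest from the ends, then the 3 longest runs (ties by the higher mean), the 2 tiles on either side of 0, the 2 largest SDs and the 2 members above 0 in the fewest replicates (ties by SD). TA27G03, TA27H01, TA30C09, TA60A01, TA60A02 and the stretches above -1 were added after their values were seen. Precision is limited by the number of arrays, whose signal over background is unknown.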

Additional observations from a re-analysis of the deposited data

Results flagged for a closer look

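Dixon's test was run on 56 results and picked out 2, where chance picks out about 1 in 20. TA30C11 read 1.70 in replicate 1, while the other 3 lay between 2.07 and 2.15. TA27F09 read 2.11 in replicate 4, while the other 3 lay between 1.44 and 1.49. Both tiles were above 0 in every replicate. Dixon's test cannot flag a split of 2 replicates against 2.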

How the results depend on the processing

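The centring and the level required moved the counts. As deposited and centred on the mode, the members numbered 120 and 85, their runs 65 and 50, those 96 wells or more from a block end 93 and 64, and those called above the median tile 59 and 52; all of those tiles were among the 241, as both settings lower every tile. Tiles chosen on replicates 1 and 3 were above 0 in both others in 92.8% and 62.4% of cases, and tiles chosen on 2 and 4 in 35.9% as deposited. The split of 1 and 3 from 2 and 4 called 21 members on the mode, and 5825 of all tiles. A mean above 0.5 left 136 members, 102 of them far from the ends, and a mean above 1 left 70, in 46 runs and with 53 far. Runs down the columns numbered 197. A random block for each of the pairs 1 and 3, and 2 and 4 (correlation 0.70), left 145 members called above the median tile. The same setting called 8177 of all tiles above it. Without 1 replicate, 8506 to 8653 of all tiles were called above it. Leaving out 1 replicate gave 234 to 245 members, 102 to 112 runs, 173 to 181 far from the ends, 154 to 166 called above the median tile and 32 to 93 in the split. Over all tiles, 8951 were called above the median tile, against 4108 as deposited and 3659 on the mode, and the split called 7421, against 11830 as deposited and 3928 to 7501 without 1 replicate. The comparison of replicates 1 and 2 with 3 and 4 called 0 members in every setting run. Quantile normalization, the median over replicates, replicates 2, 3 and 4 as 1 chromatin, all 4 replicates above 0, bridged or skipped wells, block ends from the values, TC26 as a gap and robust fitting moved these counts by less than 1.5 times. Of 43 named tiles, 35 passed the threshold, and these changed sign as deposited: TA27G08 (-0.0268), TA27G12 (-0.27), TA30D06 (-0.0651), TA59A07 (-0.21) and TA59H12 (-0.0739). On the mode TA27G08 (-0.28), TA27G09 (-0.11), TA27G12 (-0.52), TA30D02 (-0.0181), TA30D06 (-0.31), TA59A07 (-0.46), TA59H12 (-0.32) and TC22B12 (-0.0530) did. Both follow from the shift of the zero line. No paired analysis was possible because all samples belong to a single group.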

Other observations

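The members were spread over the wells of a plate. By plate row they were between 4.42% of the tiles in row E and 8.65% in row B, and by column between 4.81% in column 8 and 8.47% in column 1. Wells without a value were somewhat more frequent beside the runs, with 32 of 213 flanking wells against 9.96% of the 3936 wells of the blocks. Skipping such wells joined the 107 runs into 102.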
